A study of Mus musculus with 32 samples.

Results

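Prospermatogonia of mouse fetuses whose dams received bisphenol A (BPA) were compared with those of dams that received the oil vehicle. The arrays were chosen by their sample labels: 3 G1R BPA male arrays and 3 G1R Oil male arrays, 6 of the 32 arrays of the series. G1R stands for germ cells of the exposed G1 fetus that have been reprogrammed. All 6 samples were of the FVBxOG2 genotype. BPA was given to the dam at 0.2 mg/kg per day from 12.5 days post coitum (dpc), the oil animals got corn oil alone, and the cells of both groups were collected at 17.5 dpc. OG2 is a transgene in which the Oct4 promoter drives a green fluorescent protein, and both groups carry it. Cells were taken from the gonad by flow sorting for that fluorescence. The RNA was read on Mouse Gene 1.0 ST arrays and deposited after robust multichip averaging, on a log2 scale, for 35556 probes, where a probe stands for several oligonucleotides of 1 transcript region. The other arrays of the series (oocytes, the endocrine disruptors DEHP and vinclozolin (VZ), and the next generation) entered the model of the spread between replicates. Whether the numbered arrays came from separate dams, or from how many pooled fetuses, is not given in the sources used here, so p-values measure the spread between these samples, which may be partly technical.

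BPA is a monomer of plastics that binds estrogen receptors weakly and is classed as an endocrine disruptor. Prospermatogonia are the male germ cells of the fetal testis, which stop dividing before birth and acquire their DNA methylation, paternal imprints included, during the window of this exposure. They lie inside cords built by Sertoli cells, which secrete anti-Müllerian hormone and inhibin. Fetal Leydig cells between the cords make androgen from cholesterol, and peritubular cells, fibroblasts and vessels fill the rest of the testis.

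The germ cell label was borne out by the defining genes. Ddx4, an RNA helicase of the germ line, had log2 signals of 11.60, 11.58 and 11.75 in BPA arrays 1 to 3, against 11.52, 11.69 and 11.66 in oil arrays 1 to 3. Dazl, a germ cell RNA-binding protein gene, stood at 12.31, 12.41 and 12.47 in BPA against 12.30, 12.40 and 12.37 in oil. Dnmt3l, the partner of the methyltransferases that act in these cells, had 11.66, 11.67 and 11.73 in BPA arrays and 11.74, 11.97 and 11.71 in oil arrays. Each of these groups overlapped. Nanos2, a male germ cell fate gene, lay between 6.29 and 6.47 in BPA and between 6.19 and 6.47 in oil. These Nanos2 signals were under 7.03, the level below which 95% of the 1023 olfactory receptor probes lay, and are not distinguishable from background.

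The arrays were alike over all probes, with medians of 7.46 to 7.50 and pairwise correlations of 0.987 to 0.992, yet BPA arrays 1 and 2 stood apart from BPA array 3 in genes of testis somatic cells. The mean signal of 24 Sertoli cell genes was 8.83, 8.44 and 7.54 in BPA arrays 1, 2 and 3, and 7.63, 7.32 and 7.76 in oil arrays 1, 2 and 3. BPA array 3 thus lay within the oil range, and oil array 2 was the lowest of all. For this reason the values are given by array, and the counts are given with and without BPA array 3. In the deposited sample list the oil males precede the BPA males, and the place in that list and the treatment cannot be told apart.

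No probe passed the test of BPA against oil at an adjusted p under 0.05 (limma, Benjamini-Hochberg over 35556 probes), which is 0% of the probes in either direction. At an unadjusted p under 0.05 there were 1463 higher probes (4.11%) and 1011 lower probes (2.84%), and the median log2 fold change of all probes was -0.02. With a further threshold of 1.5-fold, 184 probes were higher (0.517%) and 87 were lower (0.245%). The 184 higher probes included 110 that name a single gene (59.8%), whereas the 87 lower probes included 3 (3.45%). Over all probes that share was 61.3%. BPA arrays 1 and 2 were above all oil arrays at each of the 110 (11.9% of all probes). Of the 110, BPA array 3 lay within the oil range at 75, below it at 7 and above it at 28. The shares of all probes with these patterns were 4.8%, 1.63% and 5.47%. The 3 lower single-gene probes had all BPA arrays below all oil arrays (7.86% of all probes). Both sets were chosen by their difference between these same arrays, which favours such patterns. The shares beside them are thus a description and not a test. Without BPA array 3, 389 probes passed the test as higher (1.09%) and 14 as lower (0.0394%). That array was left out because of its values, so these counts describe the split between the arrays and are not a separate test.

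Among single-gene probes with a mean signal of at least 6.7, the 10 highest log2 fold changes were those of Inha, Prss35, Gja1, Dcn, Aldh1a1, Akr1cl, Hsd17b3, Amh, Anxa5 and Itm2a. Inha, Prss35, Gja1 and Amh belong to the Sertoli list and Dcn to that of peritubular and interstitial cells. Inha, which encodes the α subunit of inhibin, had log2 signals of 11.28, 10.96 and 8.94 in BPA arrays 1 to 3, against 8.89, 7.97 and 9.42 in oil arrays 1 to 3. BPA arrays 1 and 2 were above every oil array, and BPA array 3 lay between the oil arrays. The group means were 10.39 ± 1.27 in BPA and 8.76 ± 0.73 in oil (SD, n = 3 each), a log2 fold change of 1.64 (SE 0.46, limma adjusted p = 0.34), or 3.11-fold. Gja1, a connexin of gap junctions, stood at 9.89, 9.22 and 7.08 in BPA against 7.45, 6.57 and 7.62 in oil. The BPA arrays split in the same way as for Inha, and the log2 fold change was 1.52 (SE 0.47, limma adjusted p = 0.394). The SE comes from a variance pooled over all 11 groups, and the SD of Gja1 in BPA, 1.47, was wider than its SD in oil, 0.56.

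The promoter windows of Inha, Prss35 and Gja1, 250 bases before to 50 after the start site (RefSeq, GRCm38.p6), are shown because BPA acts on estrogen receptors and these genes had the 3 highest log2 fold changes. Estrogen receptors bind pairs of the letters GGTCA, and the capitals mark the match to these letters in either orientation (GGTCA, or TGACC on the other strand).
Inha (chr1:75507359-75507658, plus strand): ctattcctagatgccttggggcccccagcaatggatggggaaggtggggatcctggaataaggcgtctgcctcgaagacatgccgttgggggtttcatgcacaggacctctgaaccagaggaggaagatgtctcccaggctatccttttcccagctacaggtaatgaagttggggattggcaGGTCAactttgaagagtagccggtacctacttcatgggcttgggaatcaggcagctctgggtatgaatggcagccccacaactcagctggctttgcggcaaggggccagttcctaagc
Prss35 (chr9:86743383-86743682, plus strand): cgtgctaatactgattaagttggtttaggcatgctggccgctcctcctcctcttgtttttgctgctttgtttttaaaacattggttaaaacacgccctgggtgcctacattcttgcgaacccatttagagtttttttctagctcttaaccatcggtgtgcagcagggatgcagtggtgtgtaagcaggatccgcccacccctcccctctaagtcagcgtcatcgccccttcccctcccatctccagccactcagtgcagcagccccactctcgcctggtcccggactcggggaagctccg
Gja1 (chr10:56377050-56377349, plus strand): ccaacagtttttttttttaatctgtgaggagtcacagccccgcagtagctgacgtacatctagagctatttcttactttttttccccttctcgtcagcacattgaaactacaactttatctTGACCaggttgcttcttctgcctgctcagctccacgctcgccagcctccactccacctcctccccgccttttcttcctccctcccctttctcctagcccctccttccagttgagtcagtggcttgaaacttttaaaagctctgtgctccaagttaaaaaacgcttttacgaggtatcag
The windows of Inha and Gja1 held 1 match each, 68 bases before the start site in Inha and 129 bases before it in Gja1, and that of Prss35 held 0. Windows of a single chromosome were not used, in the lists or over all genes. Of the 24 Sertoli cell genes, 12 had a window among those used, and 7 of these held GGTCA in either orientation (58.3%). The share over all 27025 genes with a window was 43.6%. The full palindrome of the estrogen response element, GGTCA and TGACC with 3 bases between them, stood in 0 of the 12 windows and in 0.074% of all genes with a window. These matches are a description of the letters in the windows.

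Among the other leading genes, Prss35, a serine protease homologue, had 9.39, 9.53 and 6.83 in BPA against 7.32, 6.17 and 7.48 in oil. Amh, anti-Müllerian hormone, stood at 10.13, 9.01 and 6.80 in BPA against 7.54, 6.84 and 7.59 in oil, so that BPA arrays 1 and 2 held the highest of the 6 signals and BPA array 3 the lowest. Hsd17b3, the enzyme that reduces androstenedione to testosterone and that fetal mouse Sertoli cells express, had 10.22, 9.33 and 7.47 in BPA against 7.76, 7.15 and 8.07 in oil. The log2 fold changes were 1.59 for Prss35, 1.32 for Amh and 1.35 for Hsd17b3, with limma adjusted p-values of 0.353, 0.512 and 0.427. Each of these genes was above the oil range in BPA arrays 1 and 2 and not in array 3. Aldh1a1, which makes retinoic acid from retinaldehyde, followed the same split with 10.45, 9.98 and 7.81 in BPA against 8.10, 7.63 and 8.24 in oil. Akr1cl, an aldo-keto reductase family gene, did so with 8.38, 8.32 and 6.02 in BPA against 6.31, 5.78 and 6.55 in oil, where BPA array 3 and all oil arrays were under the background level of 7.03. Anxa5, the phospholipid-binding protein annexin A5, had 9.96, 10.11 and 8.29 in BPA against 7.96, 7.997 and 8.47 in oil.

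Over the whole Sertoli list, 0 of 24 measured genes passed the test, and 20 had an unadjusted p under 0.05, all of them higher in BPA (4.11% of all probes). The median log2 fold change was 0.59, or 0.44 without Inha, Prss35, Gja1 and Amh, which the study had picked from these arrays. The other members were also chosen with earlier results of these data known. The counts and shares of this list are thus a description and not a test. BPA arrays 1 and 2 were both above all oil arrays at 22 of the 24 genes (11.9% of all probes). Of those 22, BPA array 3 was within the oil range at 14, below it at 4 and above it at 4. The shares of all probes with these patterns were 4.8%, 1.63% and 5.47%. Clu, the secreted chaperone clusterin, was 1 of the genes with no overlap, at 10.88, 10.29 and 9.47 in BPA against 9.37, 9.15 and 9.38 in oil. Nr0b1, an orphan nuclear receptor of the gonad and adrenal, was another, at 7.57, 7.38 and 7.16 in BPA against 6.42, 6.78 and 6.84 in oil. At Sox9, the transcription factor that sets Sertoli cell fate, BPA had 9.47, 9.03 and 8.84 and oil had 8.69, 8.47 and 8.93. Its log2 fold change of 0.41 was smaller than that of Amh. Dhh, the Sertoli cell ligand that acts on Leydig cell precursors, had 7.59, 7.45 and 6.62 in BPA against 6.79, 6.72 and 6.85 in oil. Without BPA array 3, 18 of the 24 genes passed the test, all as higher (1.09% of all probes). That array was left out because of its values in such genes, so this count describes the split between the arrays and is not a separate test. Fewer or more cells of a type and less or more RNA per cell cannot be told apart in such bulk signals.

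**Figure D1:**
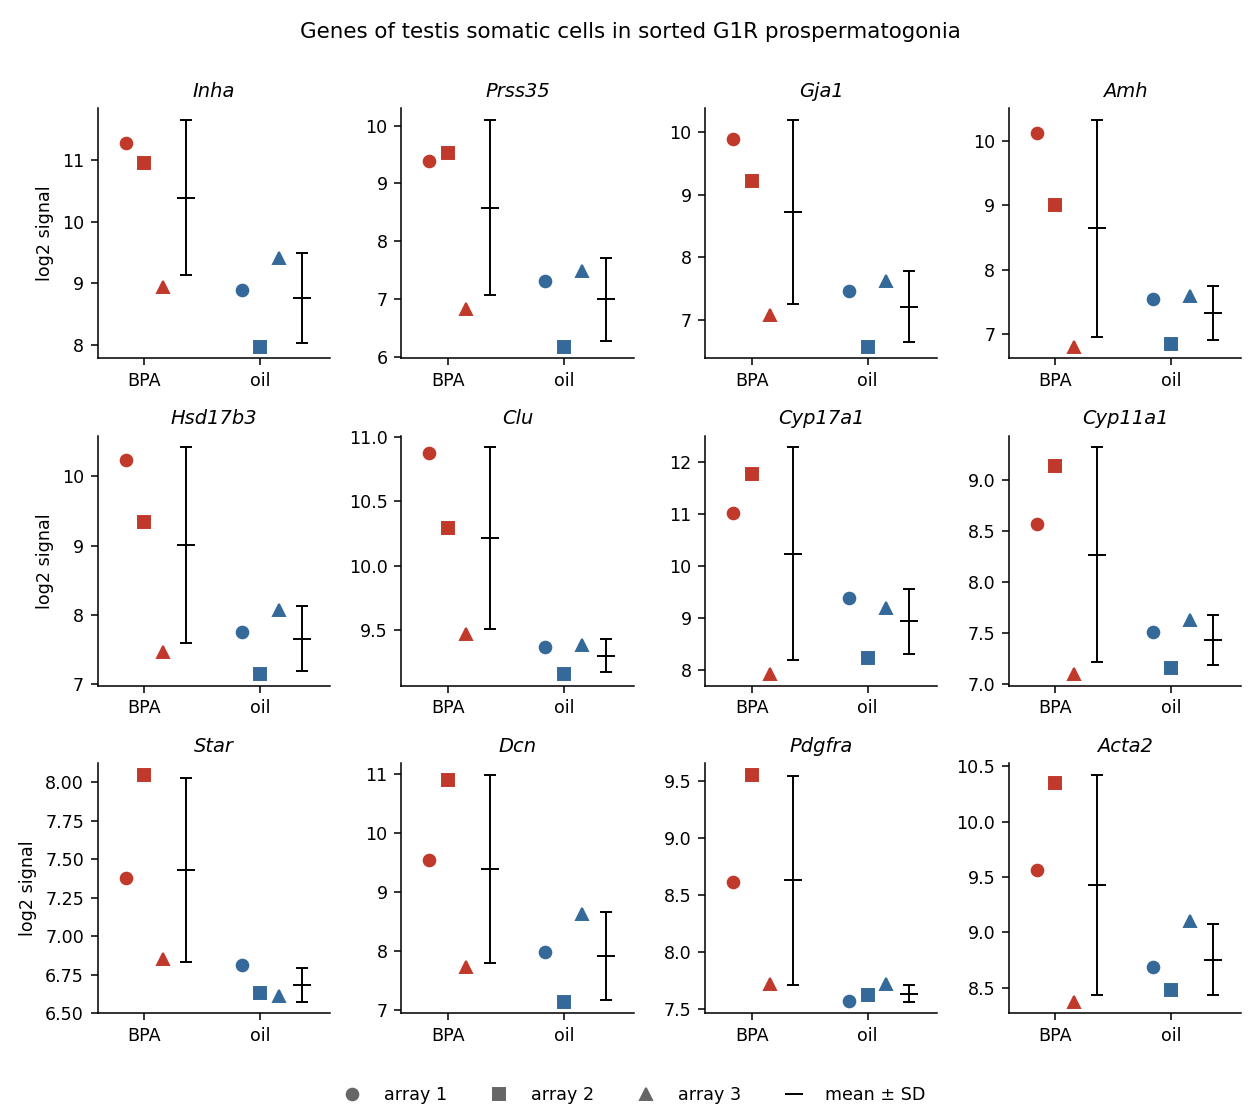
Log2 signal (y axes, 1 scale per gene) of 12 genes of testis somatic cells in the 3 BPA arrays (left) and 3 oil arrays (right) of each panel, with the mean and SD (n = 3) beside the points. In BPA the circles and squares (arrays 1 and 2) lie above the oil points at each gene, and the triangle (array 3) lies among or near them, as at Inha with 11.28, 10.96 and 8.94.

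Genes of fetal Leydig cells and of the peritubular and interstitial tissue were also high in BPA arrays 1 and 2, with the order of these arrays turned round. Cyp17a1, the enzyme that turns progestins into androgens, had 11.03, 11.78 and 7.91 in BPA against 9.39, 8.23 and 9.19 in oil. BPA array 3 was here the lowest of the 6 arrays, and the log2 fold change of 1.31 had an SE of 0.76 (limma adjusted p = 0.793). Cyp11a1, which cleaves the cholesterol side chain, stood at 8.57, 9.13 and 7.10 in BPA against 7.51, 7.16 and 7.62 in oil. Star, which carries cholesterol into the mitochondrion, had 7.38, 8.05 and 6.85 in BPA against 6.81, 6.63 and 6.61 in oil, with no overlap between the groups. Of the 8 measured Leydig genes, 0 passed the test and 2 had an unadjusted p under 0.05 as higher (4.11% of all probes). These 2 were Star and the sulfotransferase gene Sult1e1, which was under 7.03 in each array. The median log2 fold change of the 8 genes was 0.47, and 5 of them had a mean signal above the background level.

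Dcn, the proteoglycan decorin of connective tissue, had 9.55, 10.90 and 7.73 in BPA against 7.99, 7.14 and 8.63 in oil, a log2 fold change of 1.47 (SE 0.52, limma adjusted p = 0.49). Pdgfra, a growth factor receptor of interstitial mesenchyme, stood at 8.62, 9.56 and 7.72 in BPA against 7.58, 7.62 and 7.72 in oil. BPA array 3 exceeded the highest oil array only narrowly, and the log2 fold change was 0.99 (SE 0.25, limma adjusted p = 0.283). Acta2, the smooth muscle actin of peritubular cells, had 9.56, 10.35 and 8.37 in BPA against 8.68, 8.47 and 9.10 in oil. Of the 16 measured genes of the peritubular and interstitial list, 8 had an unadjusted p under 0.05 as higher (4.11% of all probes), 0 passed the test, and the median log2 fold change was 0.36. Over all 44 measured collagen chains, 3 of which are in this list, the median was -0.02, with Col1a2 at 0.72 and Col24a1 at -0.19. Itm2a, which encodes a membrane protein and is in none of the lists, was at 8.32, 9.68 and 7.30 in BPA and at 7.12, 6.82 and 7.43 in oil.

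Sertoli genes were higher in BPA array 1 and interstitial genes in BPA array 2. BPA array 1 exceeded BPA array 2 at 22 of 24 Sertoli genes, at 1 of 8 Leydig genes and at 0 of 16 peritubular and interstitial genes, beside 55.6% of all probes. The list means of the Leydig genes were 7.45, 7.76 and 6.63 in BPA arrays and 6.83, 6.62 and 6.82 in oil arrays. Those of the peritubular and interstitial genes were 8.37, 8.95 and 7.88 in BPA arrays and 7.96, 7.78 and 8.08 in oil arrays. In both lists, the mean of BPA array 3 was within the oil range, and oil array 2 was the lowest oil array.

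**Figure D2:**
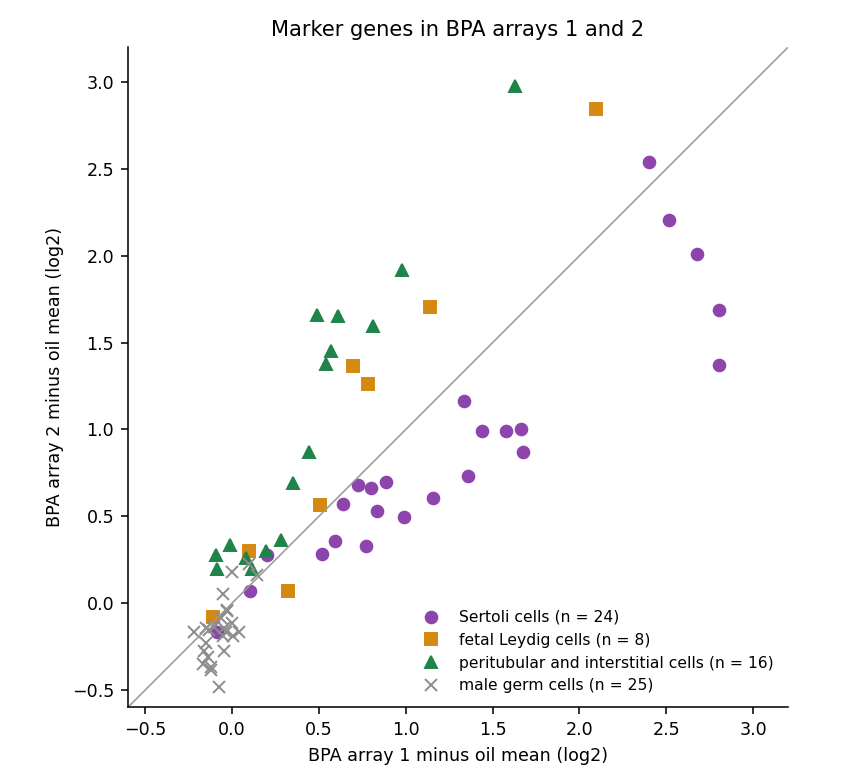
Log2 signal of each marker gene in BPA array 1 (x axis) and BPA array 2 (y axis), each minus the mean of the 3 oil arrays, for 24 Sertoli, 8 fetal Leydig, 16 peritubular and interstitial and 25 male germ cell genes, with a line where both arrays are equal. Sertoli genes lie below the line at 22 of 24 points, and all 16 peritubular and interstitial genes lie above it.

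Lists of markers of other cell types of the gonad had medians near 0. Of 10 endothelial genes, 0 had an unadjusted p under 0.05, the median log2 fold change was 0.004, and the list means ran from 7.87 to 7.96 in BPA and from 7.82 to 7.93 in oil. Cdh5, the cadherin of vessels, had 9.21, 9.59 and 9.02 in BPA against 9.04, 8.91 and 9.15 in oil. Among 15 genes of macrophages and blood cells, with list means of 6.56 to 6.77 in BPA and 6.65 to 6.71 in oil, the median was also 0.004. The 1 gene at an unadjusted p under 0.05 was the embryonic globin Hbb-y, which was lower (2.84% of all probes). It had 5.23, 5.34 and 5.32 in BPA against 5.84, 5.46 and 5.68 in oil, under the level of 7.03. Csf1r and Adgre1, which define macrophages, had signals under 7.03 in each array. The 7 granulosa genes had a median of -0.02, and the 7 genes of surface, rete and mesonephric epithelium had a median of 0.01. Of these 7, 1 had an unadjusted p under 0.05, as higher (4.11% of all probes). This was Lhx9, a homeobox gene of the gonadal ridge, which had the array split of the somatic genes, with 7.73, 8.16 and 7.45 in BPA against 7.44, 7.23 and 7.56 in oil, and a log2 fold change of 0.37 (SE 0.15, limma adjusted p = 0.574).

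**Figure D3:**
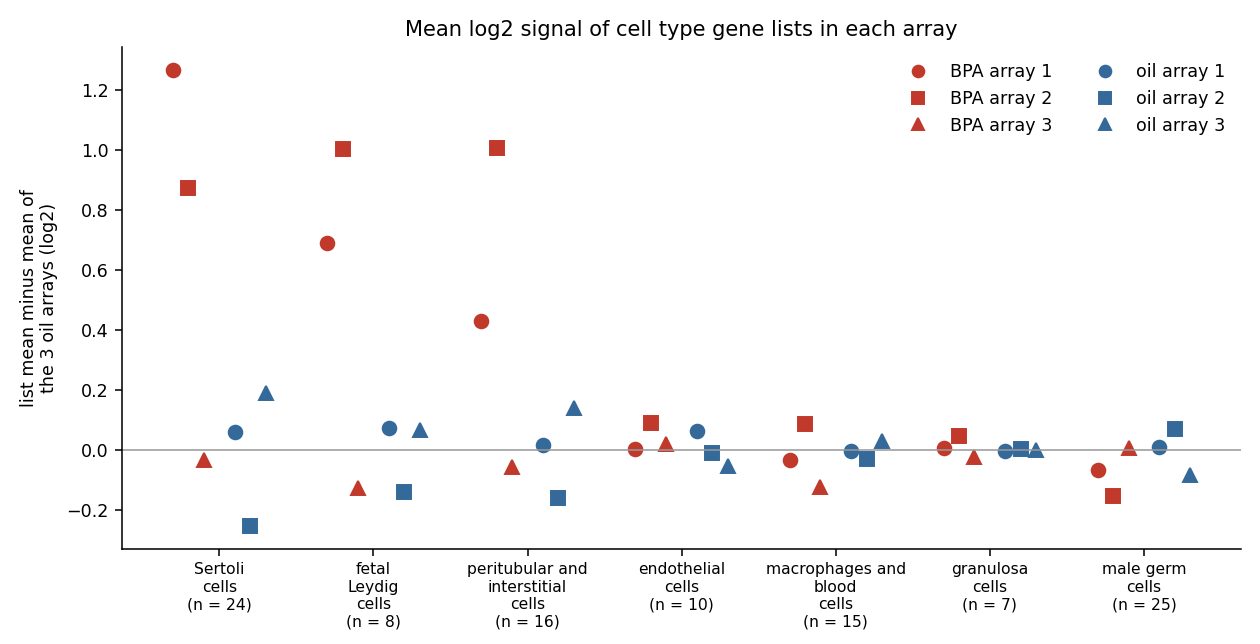
Mean log2 signal of 7 cell type gene lists (x axis, with the number of measured genes) in each BPA array (left of each pair) and oil array (right), minus the mean of the 3 oil arrays (y axis). BPA arrays 1 and 2 stand above all other arrays for Sertoli, fetal Leydig, and peritubular and interstitial genes, and no BPA array stands out as far for the other 4 lists.

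The listed genes of male germ cells differed from oil by at most 0.27 on the log2 scale. Of 25 male germ cell genes, 0 passed the test, and the median log2 fold change was -0.08, beside -0.02 over all probes. At an unadjusted p under 0.05, 3 were lower (2.84% of all probes) and 1 was higher (4.11%). The log2 fold change was negative at 20 of the 25, beside 19738 of all 35556 probes. The list means were 10.01, 9.93 and 10.09 in BPA arrays 1 to 3 and 10.09, 10.15 and 9.997 in oil arrays. BPA array 2, with the highest interstitial signals, had the lowest germ cell mean, and BPA array 1, with the highest Sertoli mean, lay within the oil range. All BPA arrays were below all oil arrays at 4 of the 25 genes (7.86% of all probes). Tdrd9, a helicase of the piRNA pathway, was among them, with 10.61, 10.44 and 10.61 in BPA against 10.81, 10.81 and 10.63 in oil. Sohlh1, a transcription factor of spermatogonia, had 9.31, 9.12 and 9.28 in BPA against 9.57, 9.60 and 9.26 in oil, where the groups overlapped. Gfra1, the receptor for glial cell line-derived neurotrophic factor, stood at 8.37, 8.50 and 8.55 in BPA against 8.18, 8.23 and 8.41 in oil, with a log2 fold change of 0.20. The part of the somatic signals in these germ cell values was not tested.

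The study asked whether exposure in this window disturbs DNA methylation and imprints, and it measured DNA methylation itself. In RNA, the listed genes of the methylation machinery differed from oil by less than 1.5-fold. Of all probes, 0.647% were at least 1.5-fold higher and 0.439% at least 1.5-fold lower. Of 18 measured genes, 0 passed the test, 3 had an unadjusted p under 0.05 as lower (2.84% of all probes) and 0 as higher (4.11%), and the median was -0.02. Dnmt3b, a de novo methyltransferase, had 8.34, 8.13 and 8.19 in BPA against 8.44, 8.35 and 8.33 in oil. Ctcfl, the germ line paralogue of the insulator protein CTCF, stood at 7.97, 7.84 and 8.10 in BPA against 8.17, 8.17 and 8.12 in oil. The lowest of the list was Dppa3, which shields methylated DNA in the early embryo, at 6.97, 6.65 and 6.98 in BPA against 7.59, 7.24 and 7.11 in oil. Its log2 fold change was -0.44 (SE 0.21, limma adjusted p = 0.687) with no overlap between the groups, and its signal lay near the background level of 7.03. The histone methyltransferase genes Kmt2c and Ehmt2, which the study had followed, had log2 fold changes of 0.02 and -0.06.

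Among 34 measured imprinted genes the median log2 fold change was 0.08, 9 had an unadjusted p under 0.05 as higher (4.11% of all probes), and 0 passed the test. The highest was Dcn, which is also a gene of connective tissue. Peg3, a paternally expressed zinc finger gene, had 8.90, 9.48 and 8.48 in BPA against 8.47, 8.26 and 8.64 in oil. The order of the BPA arrays was that of the interstitial genes. Nnat, paternally expressed neuronatin, stood at 8.64, 8.66 and 8.17 in BPA against 7.89, 8.28 and 8.11 in oil. Slc38a4, an imprinted amino acid transporter gene, had all BPA arrays above all oil arrays, at 10.62, 10.50 and 10.51 in BPA against 10.23, 10.25 and 10.30 in oil, with a log2 fold change of 0.28 (SE 0.10, limma adjusted p = 0.508).

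All BPA arrays, array 3 included, lay above all oil arrays at 1945 probes (5.47%) and below them at 2793 probes (7.86%). The gene with the smallest p in the comparison belonged to the first set. Ska2, a subunit of the complex that holds kinetochores on spindle microtubules, had 8.12, 8.14 and 7.62 in BPA against 7.23, 6.99 and 7.37 in oil. The means were 7.96 ± 0.30 in BPA and 7.20 ± 0.19 in oil (SD, n = 3 each), a log2 fold change of 0.76 (SE 0.12), or 1.69-fold, which narrowly missed the test (limma adjusted p = 0.0568). Without oil array 3, Ska2 passed it, with a log2 fold change of 0.85 (limma adjusted p = 0.0497), as the single probe to do so in that setting. Ubqln2, a ubiquilin that delivers proteins to the proteasome, stood at 7.43, 7.52 and 7.09 in BPA against 6.85, 6.54 and 6.91 in oil. Tmem59, a membrane protein gene, had 9.51, 9.56 and 9.29 in BPA against 8.66, 8.80 and 8.96 in oil. Their log2 fold changes were 0.58 and 0.65, each with a limma adjusted p of 0.0878.

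Tmem165, a Golgi manganese transporter gene, had 9.28, 9.54 and 9.36 in BPA against 8.96, 8.84 and 8.91 in oil. BPA array 3 here stood between the other BPA arrays, unlike at the somatic genes. Mmut, the mitochondrial methylmalonyl-CoA mutase, likewise had BPA array 3 between the others, at 8.47, 8.24 and 8.40 in BPA against 8.01, 7.74 and 8.05 in oil. Socs2, a brake on cytokine and growth hormone signalling, stood at 10.37, 10.16 and 9.42 in BPA against 9.19, 9.05 and 9.22 in oil. Tug1, a long noncoding RNA, had 10.15, 10.14 and 9.67 in BPA against 9.25, 9.49 and 9.58 in oil. At Socs2 and Tug1, BPA array 3 was nearer to oil than BPA arrays 1 and 2 were. Meis1, Plce1 and Cpe, which encode a homeobox factor, a phospholipase C and a carboxypeptidase, completed the 10 genes with the smallest p, with log2 fold changes of 0.66, 0.50 and 0.73 and limma adjusted p-values of 0.147 to 0.155. The highest log2 fold changes without overlap again included Pdgfra, Clu and Star, as well as Cped1 (0.80), the adhesion gene Jam2 (0.80), the calcium-binding protein gene Sri (0.79), the alcohol dehydrogenase gene Adh1 (0.77) and the collagen cross-linking enzyme gene Lox (0.69). Stc1, a secreted hormone gene, had 7.07, 8.02 and 6.66 in BPA against 6.41, 6.40 and 6.52 in oil, so that BPA array 3 and all oil arrays were under the background level of 7.03.

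On the lower side, the median size of the log2 difference among the probes without overlap was 0.20, and 3 single-gene probes reached 1.5-fold at an unadjusted p under 0.05. Tmem38b, a potassium channel gene of the endoplasmic reticulum, had 7.71, 7.50 and 7.42 in BPA against 8.92, 7.87 and 7.90 in oil, a log2 fold change of -0.69 (SE 0.23, limma adjusted p = 0.447). Oil array 1 stood far above the rest there. Tmc2, a channel gene known from hair cells of the ear, stood at 8.004, 7.40 and 7.67 in BPA against 8.09, 8.70 and 8.19 in oil. Snord85, a small nucleolar RNA that guides RNA methylation, had 7.93, 7.36 and 7.97 in BPA against 8.41, 8.29 and 8.37 in oil. The log2 fold changes of Tmc2 and Snord85 were -0.64 and -0.60. Rsph4a, a radial spoke gene of motile cilia, had 7.90, 7.97 and 7.88 in BPA against 8.54, 8.19 and 8.68 in oil, and Catsperd, a subunit gene of the sperm calcium channel, had 8.20, 8.04 and 8.20 in BPA against 8.44, 8.87 and 8.55 in oil. Their log2 fold changes were -0.55 and -0.47, with limma adjusted p-values of 0.426 and 0.422. Ppp1r32 (-0.42) and the small RNA genes Snora31 (-0.46) and Rny1 (-0.46) were also lower without overlap. Gm10277, Atp13a5 and Mroh7, with all BPA arrays below all oil arrays too, had mean signals of 6.78, 6.84 and 7.02, under the background level.

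The lowest log2 fold change of the single-gene probes with a mean signal of at least 6.7 was at a small RNA gene whose groups overlapped. Rnu3a, a U3 small nucleolar RNA, had 9.83, 9.08 and 10.40 in BPA against 10.53, 10.20 and 10.83 in oil, a log2 fold change of -0.75 (SE 0.49, limma adjusted p = 0.831). BPA array 2 was the lowest of the 6 and BPA array 3 lay within the oil range. Further noncoding RNA genes among the 10 lowest probes were Vaultrc5 (-0.61), Snhg17 (-0.58), Snora16a (-0.57) and Snord118 (-0.54, at 2 probes with the same signals), with limma adjusted p-values of 0.693 to 0.904. Snord118 had 11.25, 11.29 and 11.38 in BPA against 12.85, 11.31 and 11.39 in oil, where oil array 1 alone stood apart.

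**Figure D4:**
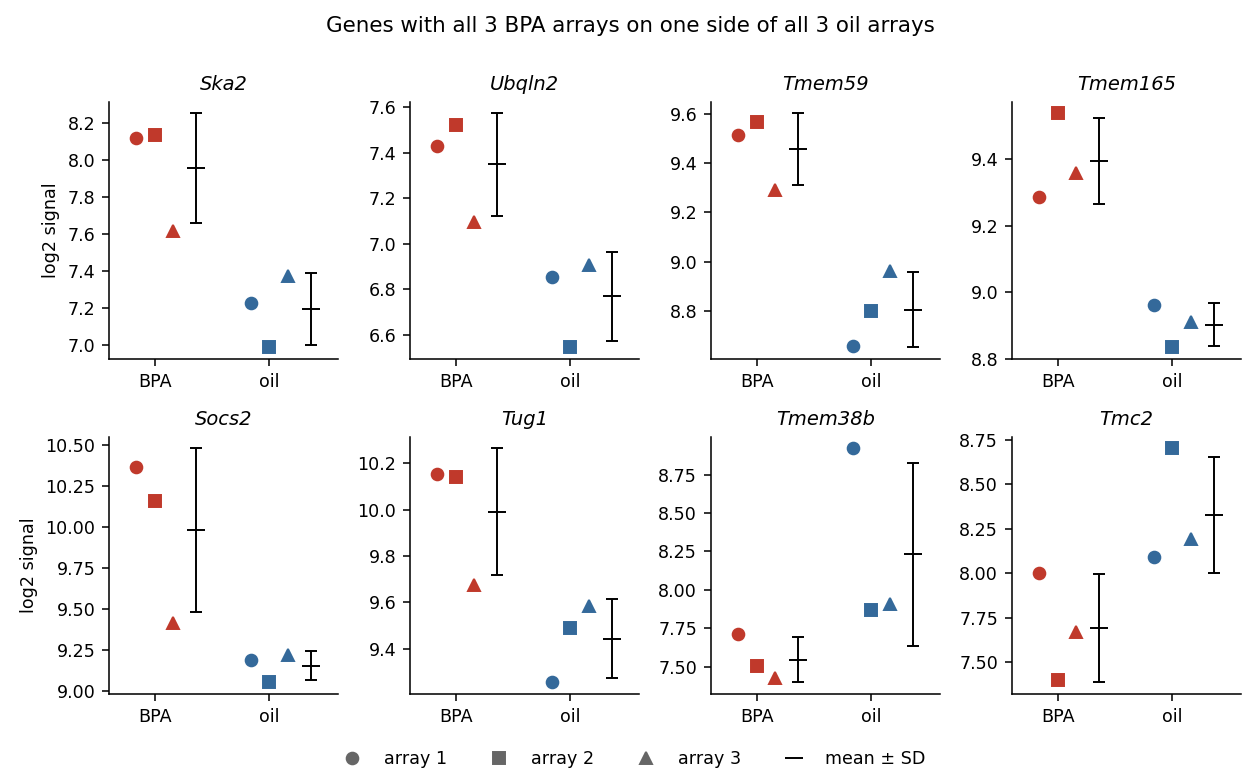
Log2 signal (y axes, 1 scale per gene) of 8 genes at which all 3 BPA arrays (left) lie on one side of all 3 oil arrays (right), with the mean and SD (n = 3) beside the points. Ska2 (8.12, 8.14 and 7.62 in BPA, 7.23, 6.99 and 7.37 in oil) and the next 5 genes are higher in BPA, and Tmem38b and Tmc2 are lower.

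Genes of estrogen signalling were of interest because of the receptors that BPA binds. Of 15 measured hormone and xenobiotic receptor genes, 0 passed the test, 2 had an unadjusted p under 0.05 as higher (4.11% of all probes), and the median was 0.01. Esr1, estrogen receptor α, had 7.37, 7.57 and 7.03 in BPA against 7.27, 6.89 and 7.27 in oil. Thra, a thyroid hormone receptor, stood at 9.43, 9.41 and 8.83 in BPA against 8.75, 8.77 and 8.69 in oil, a log2 fold change of 0.49 (SE 0.16, limma adjusted p = 0.427) without overlap. Nr3c1, the glucocorticoid receptor, had 8.93, 9.01 and 9.10 in BPA against 8.84, 8.71 and 8.67 in oil, where BPA array 3 was the highest of the 6.

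Of 22 estrogen target genes, 7 had an unadjusted p under 0.05 as higher (4.11% of all probes) and 0 as lower (2.84%), 0 passed the test, and the median log2 fold change was 0.15. Gja1, which is also a Sertoli gene, was the highest. Greb1, a coactivator gene induced by estrogen in breast cells, stood at 7.71, 7.53 and 6.91 in BPA against 7.01, 6.75 and 7.01 in oil, and so shared the array split of the Sertoli genes. Igf1, insulin-like growth factor 1, had 7.84, 8.40 and 7.17 in BPA against 7.25, 6.77 and 7.68 in oil. Xbp1, a factor of the unfolded protein response, had all BPA arrays above all oil arrays, at 9.57, 9.77 and 9.48 in BPA against 8.89, 9.40 and 9.29 in oil. The promoter windows of 17 of these genes held the full palindrome in 0 cases (0.074% of all genes with a window). They held GGTCA in 10 cases (58.8%, beside 43.6% of all genes with a window).

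In the androgen pathway, 4 of 12 measured genes had an unadjusted p under 0.05, all as higher (4.11% of all probes), and 0 passed the test. They were Hsd17b3, Hsd17b1, Shbg and Slc39a9. Hsd17b1, which reduces estrone to estradiol and in the fetal testis is a Sertoli gene, had 9.17, 8.52 and 7.49 in BPA against 7.66, 7.17 and 7.70 in oil. Shbg, a steroid-binding globulin, stood at 8.57, 7.95 and 7.61 in BPA against 7.55, 7.19 and 7.51 in oil. Slc39a9, a zinc transporter gene with a membrane androgen-binding role, had 9.18, 9.07 and 9.15 in BPA against 8.97, 9.07 and 8.86 in oil. Of the testis anion transporters that the study had followed, Slco6b1 had 6.10, 5.99 and 6.15 in BPA against 5.86, 5.48 and 5.81 in oil, at signals under 7.03.

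Smaller sets were as follows. Among 19 genes of the G2 and M phases, 6 had an unadjusted p under 0.05 as higher (4.11% of all probes) and the median was 0.05. The proliferation antigen Mki67 had 9.34, 9.10 and 8.47 in BPA against 8.23, 8.18 and 8.61 in oil, with BPA array 3 within the oil range. Kif11, a spindle motor gene, stood at 9.37, 9.33 and 9.04 in BPA against 8.76, 8.92 and 9.02 in oil. Among 15 genes of cholesterol synthesis and uptake, the median was 0.11 and all BPA arrays were above all oil arrays at 5 (5.47% of all probes). Sqle, squalene epoxidase, was 1 of these, with 9.39, 9.51 and 9.37 in BPA against 9.21, 9.06 and 9.12 in oil, a log2 fold change of 0.29 (SE 0.09, limma adjusted p = 0.401). Lss, lanosterol synthase, was another, with 8.11, 8.40 and 8.23 in BPA against 7.85, 7.80 and 7.90 in oil. At neither Sqle nor Lss did BPA array 3 stand apart from the other BPA arrays.

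Among 19 xenobiotic genes the median was 0.03, and the highest was the glutathione transferase Gstm1, with 11.40, 11.001 and 9.72 in BPA against 9.61, 9.38 and 9.96 in oil. The 16 genes of meiosis and retinoic acid had a median of 0.01, and 13 stress and immediate early genes had a median of 0.20. For 51 small nucleolar RNAs the median was -0.10, and BPA array 1 exceeded BPA array 2 at 47 of them (55.6% of all probes). The 59 cytosolic ribosomal protein genes had a median of -0.01, with all BPA arrays above all oil arrays at 5 (5.47% of all probes) and below them at 8 (7.86%), and 77 subunits of oxidative phosphorylation a median of 0.02. Rpl10, a protein of the large ribosomal subunit, had all BPA arrays above all oil arrays, at 12.22, 12.35 and 11.99 in BPA against 11.63, 11.78 and 11.98 in oil (log2 fold change 0.39, SE 0.08, limma adjusted p = 0.155). Rpl36a, of the same subunit, had all BPA arrays below, at 11.89, 11.74 and 11.74 in BPA against 11.94, 12.07 and 11.98 in oil (log2 fold change -0.21, SE 0.09, limma adjusted p = 0.669).

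The males were set beside oocytes of the same treatments, 3 BPA and 3 oil arrays. In oocytes, Inha had a mean of 8.11 ± 0.23 in BPA and 8.27 ± 0.27 in oil (SD, n = 3 each), a log2 fold change of -0.16. The difference between the BPA effect in males and that in females was 1.80 for Inha (SE 0.65, limma adjusted p = 0.969) and missed the test. For Pdgfra it was 1.29 (SE 0.36, limma adjusted p = 0.773), with -0.30 in females, and for Ska2 it was 0.72 (SE 0.17, limma adjusted p = 0.705), with 0.04 in females. Fat3, Mmut, Plekhd1 and Dnah17 were with Ska2 the genes of smallest p in that test, with differences of 0.76, 0.52, -0.61 and -0.37 and the same adjusted p, and the mean male signals of Fat3 and Plekhd1 were under 7.03. No probe passed it (0%), and 1720 had an unadjusted p under 0.05 (4.84%), so a difference between the sexes was not shown for any gene. The 24 Sertoli genes had a median log2 fold change of 0.59 in males and 0.01 in females. The oocyte means of Prss35, Gja1, Dcn, Amh, Hsd17b3 and Pdgfra were under the background level of 7.03 in both groups. For these genes the oocyte changes cannot show whether the difference was particular to males.

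**Figure D5:**
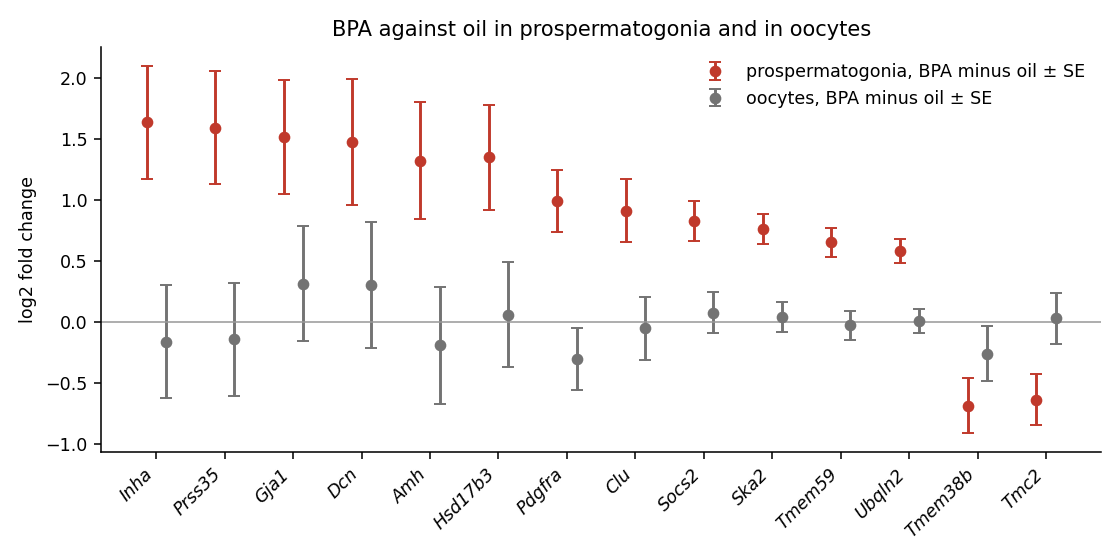
Log2 fold change of BPA against oil (y axis, mean difference with the SE of the model, 3 arrays against 3) for 14 genes in prospermatogonia (red) and oocytes (grey). The oocyte values lie near 0, between -0.30 for Pdgfra and 0.31 for Gja1, whereas Inha reaches 1.64 in prospermatogonia. The difference between the sexes did not pass the test at any of these genes. Oocyte signals of Prss35, Gja1, Dcn, Amh, Hsd17b3 and Pdgfra had means under the background level of 7.03 in both groups.

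The other male exposures were set against the same 3 oil arrays, so their values are given side by side without a comparison of lists. Inha had means of 10.39 ± 1.27 after BPA, 9.001 ± 0.59 after DEHP and 9.68 ± 0.50 after VZ, and 8.76 ± 0.73 in oil (SD, n = 3 each). Hsd17b3 had 9.01 ± 1.41 after BPA, 7.70 ± 0.43 after DEHP and 8.85 ± 0.44 after VZ, and 7.66 ± 0.47 in oil. The BPA group had the widest spread of the 4 at both genes. Cyp17a1 had 10.24 ± 2.05 after BPA, 8.91 ± 0.80 after DEHP and 8.74 ± 0.68 after VZ, and 8.94 ± 0.62 in oil. For Ska2 the means were 7.96 ± 0.30 after BPA, 7.54 ± 0.15 after DEHP and 7.72 ± 0.02 after VZ, and 7.20 ± 0.19 in oil. The BPA doses of 0.2 mg/kg per day and the doses of the other compounds differ, and differences between the compounds were not tested.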

How the data were processed

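Sorted germ cells were measured on Mouse Gene 1.0 ST arrays. Per the labels and the Methods, the authors normalized the arrays by RMA and used Partek, and the deposited values are log2 signals. No depth exists for arrays, and the 3 arrays a group limit the precision (an exact permutation test cannot go below 0.1). A mean for each of 11 groups was fitted to 32 arrays with limma 3.58.1 in R 4.3.3 (21 residual degrees of freedom, moderated variance), with Benjamini-Hochberg adjustment over 35556 probes and a threshold of 0.05. Each array's group came from its label, and all arrays were kept. Probes were named only where the platform gives 1 gene (21789 probes, 19938 genes). Listed genes without such a probe are not reported here. For a gene with several probes, the brightest stood for it in a list. The script was tested on simulated data.

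The genes named were drawn from those that the study shows, the 10 smallest p-values, the 12 highest and 12 lowest changes without overlap, the 10 highest and 10 lowest changes, members of each list among the 4 with the smallest p, the 5 smallest p-values of the sex difference and the defining markers. Members and lists were chosen with earlier results of these data known, so no list was tested. Alternatives were probe filters, cyclic loess, array weights, no moderation, fewer arrays, a replicate block and leaving arrays out. Figures were drawn with matplotlib 3.10.9. Promoters came from RefSeq (GRCm38.p6).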

Additional observations from a re-analysis of the deposited data

How the results depend on the processing

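The count of probes past the test of BPA against oil in males was 0 with all arrays, in the fit of the compared arrays alone and without moderation. It was 6 among probes with a mean signal of at least 6.7, 3 among single-gene probes, 4 after cyclic loess and 6 once the arrays were weighted by quality, and Ska2 was among the probes in each of these 4 settings. Leaving out single arrays gave 0 to 403 probes, with 403 without BPA array 3, 1 without oil array 3 and 0 without any other array. At an unadjusted p under 0.05 and at least 1.5-fold, 271 probes stood in the fit of all arrays, 174 among the probes with a mean signal of at least 6.7, 115 among single-gene probes and 1653 at 1.2-fold. Leaving out single arrays gave 201 (without BPA array 2) to 519 (without BPA array 3). The sex difference had 0 probes, and 0 to 66 when single arrays were left out (66 without BPA array 3, and 1 without oil array 2). Fewer probes were tested under the signal boundary and among single-gene probes, and in the other settings the cause was not tested.

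With the replicate number as a block, 0 probes passed the test and 295 stood at an unadjusted p under 0.05 and at least 1.5-fold. Same-numbered BPA and oil arrays deviated from their group means with correlations of -0.05, -0.14 and -0.09. These values show no shared deviation by number, and whether the samples were matched is not given in the sources used here.

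Of 1304 log2 fold changes of the 93 genes named, over all alternatives, 24 turned sign and 54 passed the test, most of these without BPA array 3. With BPA array 3 as the only BPA array, the log2 fold change was -0.16 for Prss35, -0.14 for Gja1, -0.19 for Dcn, -0.18 for Aldh1a1, -0.19 for Akr1cl, -0.19 for Hsd17b3, -0.52 for Amh, -1.02 for Cyp17a1, -0.33 for Cyp11a1, -0.38 for Acta2, -0.11 for Col1a2, -0.16 for Dhh and -0.12 for Esr1. In the same fit it was -0.024 for Hsd17b1, -0.067 for Igf1, -0.014 for Greb1, -0.010 for Cdh5, -0.0012 for Adgre1 and 0.050 for Ehmt2. Leaving out single arrays gave -0.013 to 0.052 for Kmt2c, -0.037 to 0.051 for Ddx4 and -0.13 to 0.0073 for Ehmt2, and -1.10 (without oil array 2) to 0.021 (without oil array 1) for Vaultrc5. BPA array 3 and the oil arrays were under the background level of 7.03 at Akr1cl. The number of arrays limits the precision.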
